A study of Homo sapiens with 12 samples.

Results

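The 78 genes whose symbols name a mitochondrial ribosomal protein (MRPL or MRPS followed by a number) were followed in retinoblastoma cells given THZ1. They were found by that symbol pattern among 27505 rows of the deposited count table, 19974 of which carried an Ensembl gene identifier. THZ1 is a covalent inhibitor of CDK7, a kinase that phosphorylates RNA polymerase II and activates other cyclin-dependent kinases. The study asked what THZ1 does to transcription in this tumour type. The 4 groups were WERI-Rb-1 (WERI) cells with 50 nM THZ1, WERI cells with 0.1% DMSO, Y79 cells with 50 nM THZ1 and Y79 cells with 0.1% DMSO, each for 12 h and with 3 cultures. Both are established human retinoblastoma lines, labelled wild type with no introduced allele. Each line stands for 1 tumour, so the spread below is between cultures and not between tumours.

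Mitochondria keep their own ribosome, which translates only the mRNAs of the mitochondrial genome (the MT- genes), all of them for subunits of the respiratory chain and ATP synthase. Its RNA comes from the mitochondrial genome, whereas every one of its proteins is encoded in the nucleus, transcribed by RNA polymerase II and imported. The nuclear genes must therefore be expressed alongside the MT- genes, which a separate mitochondrial polymerase (POLRMT) transcribes. Of the 78 genes, 51 encode proteins of the large subunit and 26 of the small subunit. MRPS36 was named as a ribosomal protein but is now known as a component of the 2-oxoglutarate dehydrogenase complex. Counterparts in the bacterial ribosome are known for 48 of the proteins, and 29 are found only in mitochondria. MRPS18A and MRPS30 carry small-subunit names but sit in the large subunit.

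The libraries held 29677575 to 37433574 counts. All 78 genes passed the filter on low counts, the lowest count of any of them in any library was 50, and their median was 854.5. One library, Y79 THZ1 replicate 2, stood apart: chi-square per feature against its replicates was 73.6 and 75.1, against 7.67 to 13.9 for the other replicate pairs, and 14.7% of its counts fell on cytosolic ribosomal protein genes, against 10.9% and 10.6% in the other Y79 THZ1 libraries. Some Y79 results are given with and without it, and ranges on leaving out any 1 library stand at the end. The other Y79 values include it. All 9 photoreceptor lineage markers had counts in every group, and their summed level was 1288 to 1335 counts per 1000000 (CPM) in WERI THZ1, 2240 to 2344 CPM in WERI DMSO, 717 to 829 CPM in Y79 THZ1 and 1316 to 1321 CPM in Y79 DMSO. Of 10 stroma and blood markers, 3, 3, 2 and 1 reached 1 CPM in those 4 groups, with summed levels of 57.4 to 58.3, 27.1 to 31.1, 7.22 to 8.15 and 2.99 to 4.52 CPM. Of 8 glia and pigment epithelium markers, 2, 3, 3 and 3 reached 1 CPM, with sums of 83.2 to 118, 77.2 to 85.5, 441 to 498 and 496 to 519 CPM, and TYR, an enzyme of melanin synthesis, had no counts. The part of such cells in the results was not tested.

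Most mitochondrial ribosomal protein genes fell under THZ1 in both lines, while the MT- mRNAs rose. In WERI cells 52 of the 78 fell and 7 rose, where 37.2% of all Ensembl genes tested fell and 27.7% rose. In Y79 cells 61 fell and 10 rose, against a background of 38.5% and 29.9%. A change was called at an adjusted p under 0.05 in edgeR's quasi-likelihood test, adjusted over all 18844 features. The median log2 fold change of the 78 genes was −0.64 in WERI and −1.14 in Y79, beside medians of −0.11 and −0.09 over all Ensembl genes. At least 2-fold falls numbered 29 in WERI and 45 in Y79, and at least 2-fold rises 3 and 2. Among all Ensembl genes 16.7% and 19.9% fell that far in WERI and Y79, and 11.3% and 14.4% rose that far. Levels are relative to all RNA counted in a library, so fewer cells or less RNA per cell cannot be told apart from these values.

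In all, 49 of the 78 genes fell in both lines, 28 of them at least 2-fold in both, and 5 rose in both. Of all Ensembl genes 30.9% fell in both lines, 12.6% at least 2-fold in both, and 21.8% rose in both. Another 11 fell past the threshold only in Y79 and 3 only in WERI, 5 rose past it only in Y79 and 1 only in WERI, 1 rose in WERI and fell in Y79, and 3 were called in neither (MRPL28, MRPL54 and MRPS24). Those 6 classes held 6.62%, 5.48%, 7.26%, 4.88%, 0.969% and 21.3% of all Ensembl genes, in the same order. Across the 78 genes the changes in the lines had a Spearman correlation of 0.775 and a Pearson correlation of 0.804, a description in which each line has its own controls but the genes are not independent replicates. Annotated gene length, between the outermost ends, ran over a range of 1266 to 351418 bases. It had a Spearman correlation of 0.16 with the change in WERI and 0.09 in Y79. The longest gene, MRPS22, has its promoter window start 338188 bases from its annotated start. Annotated length therefore need not be the length transcribed in these cells.

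**Figure D1:**
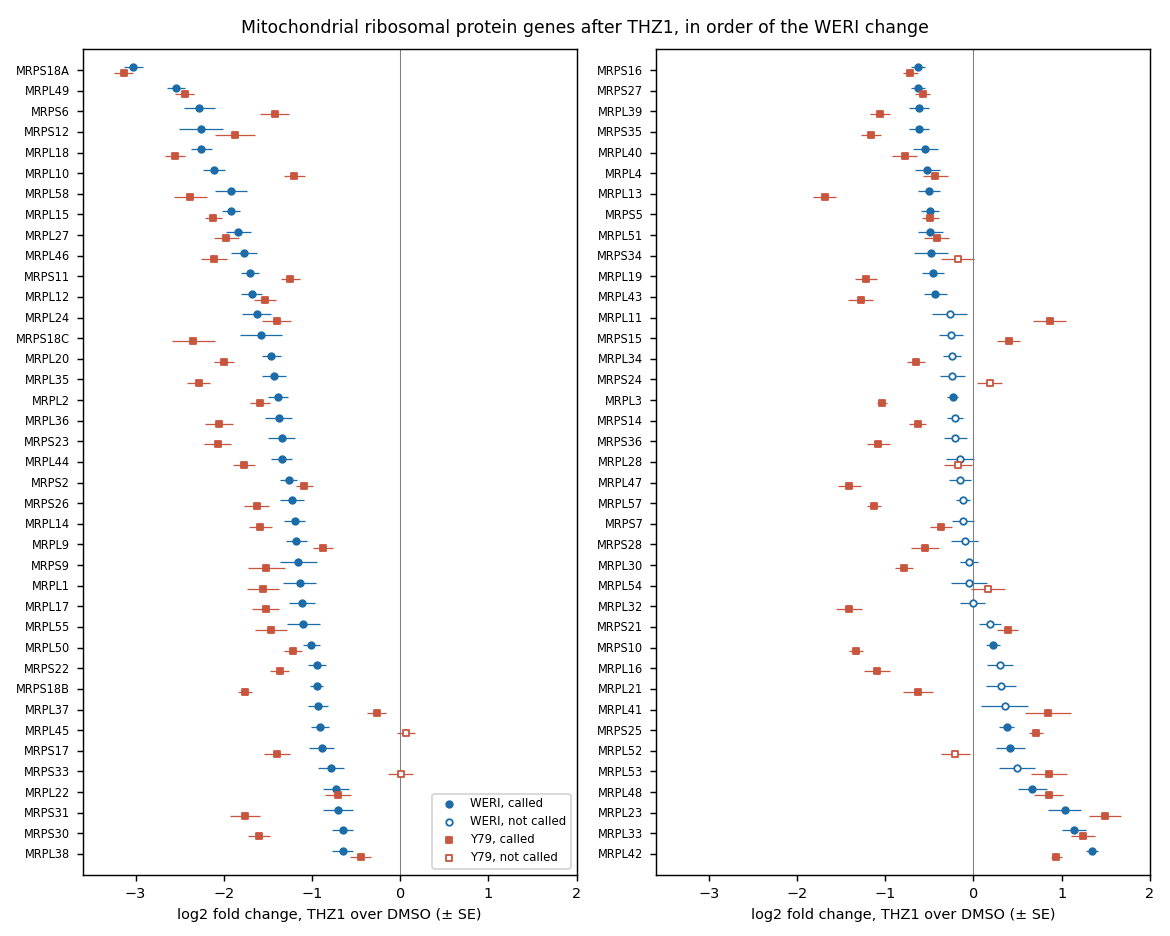
Log2 fold change of each of the 78 mitochondrial ribosomal protein genes, THZ1 over DMSO, with its standard error (circles, WERI; squares, Y79; filled, adjusted p under 0.05), ordered by the WERI change. Most points lie below 0 in both lines, MRPS18A is lowest, and MRPL42, MRPL33 and MRPL23 stand at the upper end.

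The largest falls included proteins of several places in the large subunit. MRPS18A, a homologue of bacterial S18 placed in the large subunit, had 5.14, 4.54 and 5.59 CPM in WERI THZ1, against 40.3, 44.0 and 40.2 CPM in WERI DMSO. In Y79 it had 3.93, 3.58 and 4.07 CPM with THZ1, against 32.5, 32.9 and 36.8 CPM with DMSO. Every THZ1 library lay far below every DMSO library, and the gene fell by 3.03 ± 0.11 (log2, SE, adjusted p = 1.4e-10) in WERI and by 3.14 ± 0.11 (6.2e-11) in Y79, the largest fall of the 78 in either line. On the GENCODE 29 annotation (GRCh38) the gene covers chr6:43671303-43687791 on the minus strand, and 47% of its exon bases overlap RSPH9 on the opposite strand. The library kit does not mark strand, so reads in that overlap cannot be assigned to one gene.

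MRPL49, a large-subunit protein without bacterial counterpart, had 19.0, 16.6 and 18.4 CPM in WERI THZ1, against 106, 105 and 103 CPM in WERI DMSO. In Y79 the values were 12.0, 16.5 and 13.5 CPM with THZ1, against 71.0, 81.2 and 75.3 CPM with DMSO. The groups did not overlap in either line, and the log2 fold changes were −2.54 ± 0.10 (adjusted p = 4e-10) and −2.44 ± 0.11 (2.8e-10). Of its exon bases 11.6% overlap SYVN1 on the opposite strand, and FAU, also on that strand, overlaps some as well. MRPL18, which binds 5S RNA in the bacterial counterpart and belongs to the central protuberance here, had 10.1, 8.37 and 8.07 CPM in WERI THZ1, against 40.9, 40.8 and 44.8 CPM in WERI DMSO. In Y79 it had 9.81, 13.1 and 12.2 CPM with THZ1, against 65.8, 70.8 and 68.8 CPM with DMSO. It fell by 2.25 ± 0.11 in WERI (adjusted p = 2e-09) and by 2.55 ± 0.12 in Y79 (4e-10), and it overlaps no other coding gene and has no named pseudogene.

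MRPL58, a peptidyl-tRNA hydrolase that frees stalled chains and was built into the ribosome, fell by 1.92 in WERI and by 2.38 in Y79. It had 4.27, 3.12 and 5.52 CPM in WERI THZ1, against 14.9, 16.2 and 17.7 CPM in WERI DMSO, and 2.85, 3.87 and 3.41 CPM in Y79 THZ1, against 18.5, 17.7 and 16.2 CPM in Y79 DMSO. The groups were clearly separate in both lines. MRPL35, the bL35 homologue, had 5.04, 5.62 and 6.49 CPM in WERI THZ1, against 17.3, 15.4 and 13.6 CPM in WERI DMSO. In Y79 it had 15.2, 20.8 and 17.5 CPM with THZ1, against 86.3, 90.2 and 83.5 CPM with DMSO, so that its Y79 THZ1 libraries were near the level of the WERI DMSO libraries. The log2 fold changes were −1.43 ± 0.13 and −2.29 ± 0.13. Annotated pseudogenes named after MRPL35 number 4, and reads shared with them could be split or lost in counting.

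The stalk, which recruits translation factors, held genes that moved apart. MRPL12, the stalk protein itself, which is also reported to bind the mitochondrial RNA polymerase, had 27.3, 24.5 and 27.5 CPM in WERI THZ1, against 82.1, 88.5 and 84.5 CPM in WERI DMSO. In Y79 cells the gene had 24.2, 36.4 and 26.7 CPM with THZ1, against 79.3, 83.4 and 89.6 CPM with DMSO. It fell by 1.69 ± 0.12 and by 1.53 ± 0.12, although 68.2% of its exon bases also belong to AC139530.2, a readthrough annotation on the same strand. MRPL10, which anchors the stalk, had 9.73, 9.15 and 7.69 CPM in WERI THZ1, against 35.6, 40.4 and 38.9 CPM in WERI DMSO, and 14.7, 16.5 and 12.0 CPM in Y79 THZ1, against 31.6, 33.9 and 33.7 CPM in Y79 DMSO. It fell in both lines, by 2.11 ± 0.12 in WERI and by 1.20 ± 0.12 in Y79. MRPL11, at the stalk base, had 21.9, 15.4 and 19.9 CPM in WERI THZ1, against 21.3, 24.3 and 23.3 CPM in WERI DMSO (log2 fold change −0.27 ± 0.20, adjusted p = 0.26, and −0.72 ± 0.16, adjusted p = 0.0013, under library size alone), and those groups overlapped. In Y79 cells the gene had 79.8, 131 and 70.8 CPM with THZ1, against 52.5, 50.3 and 52.1 CPM with DMSO. That rise of 0.86 ± 0.19 (adjusted p = 0.0013) was 0.52 ± 0.11 without Y79 THZ1 replicate 2, the library with the highest of the 3 values, and under scaling by library size alone it was 0.28 and not called (adjusted p = 0.13).

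The central protuberance and the tunnel exit also held both falls and rises. In the protuberance MRPL46 fell by 1.77 in WERI and by 2.11 in Y79, MRPL40 by 0.54 and 0.78, and MRPL38 by 0.65 and 0.45. MRPL48, in the same structure, rose by 0.67 ± 0.16 and 0.85 ± 0.16 under TMM scaling, was not called in either line under scaling by library size alone (0.22 and 0.27), and was lower relative to MT- counts. At the exit of the peptide tunnel MRPL24 fell by 1.63 and 1.40, MRPL17 by 1.11 and 1.53, and MRPL22 by 0.73 and 0.70. MRPL23, also at the tunnel exit, rose in both lines, and MRPL45, which holds the ribosome to the inner membrane, fell in WERI and was not called in Y79, where it fell by 0.50 under library size alone.

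Among small-subunit genes MRPS6 and MRPS12 fell most in WERI. MRPS12, a protein of the decoding site, had 2.52, 1.69 and 2.66 CPM in WERI THZ1, against 10.6, 11 and 11.4 CPM in WERI DMSO. In Y79 cells the gene had 5.45, 10.9 and 5.4 CPM with THZ1, against 26.5, 25.7 and 27.1 CPM with DMSO. It fell by 2.26 ± 0.25 and 1.88 ± 0.23, and by 2.31 ± 0.15 in Y79 without replicate 2 of the THZ1 group; 16.3% of its exon bases overlap SARS2 on the other strand. MRPS6, the bS6 homologue, had 3.18, 3.90 and 5.07 CPM in WERI THZ1, against 17.9, 19.9 and 21.3 CPM in WERI DMSO, and 10.3, 13 and 8.23 CPM in Y79 THZ1, against 27.1, 28.9 and 28.4 CPM in Y79 DMSO. Its groups were separate in both lines, with log2 fold changes of −2.28 ± 0.18 and −1.42 ± 0.17.

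The S18 homologues are encoded by 3 genes, and MRPS18B and MRPS18C, both of the small subunit, also fell. MRPS18B had 34.7, 32.1 and 38.1 CPM in WERI THZ1, against 65.5, 70.7 and 66.1 CPM in WERI DMSO, and 16.6, 16.8 and 17.5 CPM in Y79 THZ1, against 57.8, 55.9 and 58.3 CPM in Y79 DMSO. The log2 fold changes were −0.95 ± 0.08 and −1.76 ± 0.08, and the difference between lines passed the test (−0.81 ± 0.11, adjusted p = 0.00026). MRPS18C had 3.92, 2.91 and 6.42 CPM in WERI THZ1, against 11.7, 15.1 and 12.9 CPM in WERI DMSO, and 4.29, 3.68 and 2.70 CPM in Y79 THZ1, against 17.4, 19.3 and 17.6 CPM in Y79 DMSO. It fell by 1.58 ± 0.24 and 2.35 ± 0.25, with 40.2% of its exon bases shared with ABRAXAS1 on the opposite strand. MRPS30, placed in the large subunit, fell by 0.65 ± 0.12 in WERI and by 1.60 ± 0.13 in Y79. MRPS36, which is no ribosomal subunit, had a log2 fold change of −0.20 ± 0.13 in WERI (adjusted p = 0.20) and fell by 1.08 ± 0.13 in Y79.

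A small set went the other way. MRPL42, a mitochondria-specific protein, had 171, 182 and 185 CPM in WERI THZ1, against 73.2, 70.3 and 68.7 CPM in WERI DMSO. In Y79 cells the gene had 185, 198 and 182 CPM with THZ1, against 97.8, 103 and 93.8 CPM with DMSO. Every THZ1 library was above every DMSO library, and the gene had the highest CPM of the 78 in both THZ1 groups. Its rises were 1.34 ± 0.07 (adjusted p = 1.5e-09) and 0.94 ± 0.06 (1.8e-08), and relative to MT- counts its values were −0.55 and −0.77. Among annotated pseudogenes 4 are named after it, and reads shared with them could be split or lost in counting.

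MRPL33, the bL33 homologue, had 28.7, 28.2 and 35.7 CPM in WERI THZ1, against 13.8, 13.9 and 14.3 CPM in WERI DMSO, and 33.1, 46.4 and 33.0 CPM in Y79 THZ1, against 16.4, 16.6 and 14.6 CPM in Y79 DMSO. It rose by 1.14 ± 0.14 and 1.24 ± 0.14, with 21.1% of its exon bases also in BABAM2 on the same strand. MRPL23 had 52.9, 48.1 and 51.9 CPM in WERI THZ1, against 24.5, 27.2 and 23.0 CPM in WERI DMSO, and 95.8, 153 and 86.6 CPM in Y79 THZ1, against 32.3, 43.2 and 43.2 CPM in Y79 DMSO. It rose by 1.03 ± 0.18 in WERI and by 1.49 ± 0.18 in Y79, or 1.17 ± 0.11 in Y79 without THZ1 replicate 2. Under scaling by library size alone MRPL42, MRPL33 and MRPL23 were the only members called higher, in both lines, and relative to MT- counts all of them had negative values.

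Further rises were smaller or depended on a setting. MRPS25, a mitochondria-specific small-subunit protein, rose by 0.38 ± 0.08 in WERI and 0.71 ± 0.08 in Y79, where it had 149, 125 and 148 CPM with THZ1, against 85.0, 83.8 and 89.0 CPM with DMSO; its WERI value turned to −0.07 under scaling by library size alone. MRPL52 rose by 0.42 ± 0.16 in WERI (adjusted p = 0.04), and it lost that call when any one of the 6 WERI libraries was left out (0.36 to 0.46, adjusted p = 0.058 to 0.13) and turned to −0.03 under library size alone. MRPL53 had 58.9, 93.5 and 40.8 CPM in Y79 THZ1, against 34.9, 35.6 and 36.2 CPM in Y79 DMSO. Its rise of 0.86 ± 0.21 was 0.46 ± 0.11 without replicate 2 of the THZ1 group and was not called under library size alone (0.26). MRPL41 and MRPS15, called higher in Y79 at 0.84 and 0.40, were not called without that library (0.45 and 0.16).

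Falls outnumbered rises in each structural class. Of the 31 large-subunit genes with a bacterial counterpart, 21 fell and 2 rose in WERI and 27 fell and 3 rose in Y79, with median changes of −1.10 and −1.41. Of the 20 large-subunit genes found only in mitochondria, 13 fell in each line, 3 rose in WERI and 4 in Y79, with medians of −0.58 and −0.61. Of the 17 small-subunit genes with a counterpart, 10 fell and 1 rose in WERI and 14 fell and 2 rose in Y79, with medians of −0.63 and −1.09. Of the 9 mitochondria-specific small-subunit genes, 8 fell and 1 rose in WERI and 6 fell and 1 rose in Y79, with medians of −0.70 and −1.16. No test was made between these classes. Genes without overlap with another coding gene and without a named pseudogene, 24 in all, gave these counts: 18 fell and 2 rose in WERI, and 19 fell and 2 rose in Y79, with medians of −1.12 and −1.49.

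The difference of the THZ1 change, Y79 minus WERI, was called negative for 22 of the 78 genes and positive for 8, where 13.2% and 8.74% of all Ensembl genes were called. Without Y79 THZ1 replicate 2 it was negative for 35 and positive for 9, with 20% and 14.3% of Ensembl genes. The median difference was −0.28, against −0.01 over all Ensembl genes.

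MRPS10, the uS10 homologue, was the one gene called in opposite directions under TMM scaling, and its WERI value turned to −0.23 ± 0.09 (adjusted p = 0.032) under library size alone and to −1.68 relative to MT- counts. It had 67.6, 74.3 and 73.7 CPM in WERI THZ1, against 59.5, 61.2 and 64.5 CPM in WERI DMSO, and 19.3, 19.3 and 17.9 CPM in Y79 THZ1, against 46.3, 52.2 and 43.6 CPM in Y79 DMSO. In TMM-scaled CPM the groups did not overlap in either line, and the log2 fold changes were 0.22 ± 0.08 (adjusted p = 0.027) and −1.33 ± 0.08 (6.7e-09), a difference of −1.55 ± 0.11 (6.3e-06). That difference was −1.67 under library size alone and −1.37 relative to MT- counts. MRPL32, whose maturation by a mitochondrial protease is needed for ribosome assembly, had 24.5, 29.1 and 25.4 CPM in WERI THZ1, against 27.4, 26.5 and 25.4 CPM in WERI DMSO, and 12.6, 18.4 and 11.1 CPM in Y79 THZ1, against 36.6, 37.8 and 37.2 CPM in Y79 DMSO. Its groups overlapped in WERI and were separate in Y79, and the difference was −1.40 ± 0.20. Under library size alone MRPL32 also fell in WERI, by 0.45, against 1.99 in Y79.

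MRPL16 and MRPL47 followed that pattern. MRPL16, the uL16 homologue, had 10.0, 7.86 and 8.90 CPM in WERI THZ1, against 6.38, 8.47 and 6.89 CPM in WERI DMSO, and 5.45, 4.89 and 4.95 CPM in Y79 THZ1, against 11, 10.2 and 11.5 CPM in Y79 DMSO (difference −1.39 ± 0.21). MRPL47, the uL29 homologue, had 24.5, 29.4 and 22.5 CPM in WERI THZ1, against 28.9, 29 and 26.7 CPM in WERI DMSO, and 12.3, 16.8 and 12.3 CPM in Y79 THZ1, against 34.1, 37.8 and 37.6 CPM in Y79 DMSO (difference −1.26 ± 0.18). Under TMM scaling both were called in Y79 and not in WERI, and for both the difference itself was called. Under library size alone MRPL47 was called lower in WERI too (−0.59), and MRPL16 was not (−0.15).

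In the other direction MRPL45 had 11.2, 12.9 and 11.8 CPM in WERI THZ1, against 23.5, 23.0 and 21.0 CPM in WERI DMSO, and 40.5, 51.7 and 41.0 CPM in Y79 THZ1, against 41.0, 44.1 and 41.7 CPM in Y79 DMSO. It fell by 0.91 ± 0.11 in WERI, and its Y79 groups overlapped at 0.07 ± 0.10 (adjusted p = 0.58). Its Y79 value was −0.50 (adjusted p = 0.00017) under library size alone and −1.64 relative to MT- counts. The difference was 0.98 ± 0.15 (adjusted p = 0.00053), with 0.85 and 1.16 under those scalings. The differences of MRPL11, MRPL10 and MRPS6 were 1.13 ± 0.27, 0.91 ± 0.17 and 0.85 ± 0.24. That of MRPS6 (adjusted p = 0.025) was lost on leaving out any one of 7 of the 12 libraries, with adjusted p of 0.051 to 0.068: WERI DMSO replicates 2 and 3, WERI THZ1 replicates 1 and 2, and all 3 Y79 DMSO replicates.

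**Figure D2:**
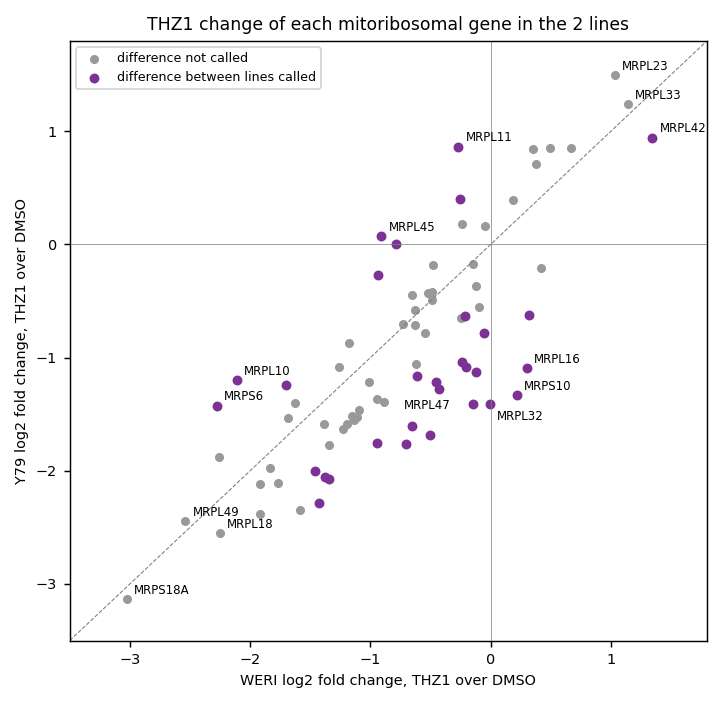
Log2 fold change of each gene, THZ1 over DMSO, in Y79 (vertical axis) against WERI (horizontal axis) under TMM scaling, with the line of equal change dashed. Genes with a called difference between the lines are purple: more of them lie below the dashed line (22) than above it (8), and MRPS10 lies right of 0 and below it.

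In DMSO the lines already differed. The genes were higher in Y79 for 50 of the 78 and lower for 6, where 32.3% and 32.6% of all Ensembl genes were called, with a median log2 difference, Y79 over WERI, of 0.46 beside 0.00 for all Ensembl genes. Relative to MT- counts 26 were higher and 10 lower, with 18.2% and 42.5% of all Ensembl genes. MRPL35 differed most, at 86.3, 90.2 and 83.5 CPM in Y79 DMSO, against 17.3, 15.4 and 13.6 CPM in WERI DMSO, a log2 difference of 2.49 ± 0.13. The limit from reads shared with its named pseudogenes holds here too. MRPL55, a large-subunit protein, had 24, 26.9 and 27.9 CPM in Y79 DMSO, against 7.32, 9.29 and 8.44 CPM in WERI DMSO (1.66 ± 0.18). MRPL54, which has no bacterial counterpart, had 18, 18.4 and 17.8 CPM in Y79 DMSO, against 5.44, 6.96 and 7.0 CPM in WERI DMSO (1.48 ± 0.20), and MRPS12 differed by 1.27 ± 0.22.

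Differences the other way were small. MRPL49 was lower in Y79 by a log2 difference of −0.46 ± 0.10, MRPS10 by −0.38 ± 0.08 and MRPL9, the bL9 homologue, by −0.30 ± 0.11. MRPS18A differed by −0.29 ± 0.09. The last 2 of these were not called on leaving out WERI DMSO replicate 2, Y79 DMSO replicate 1 or Y79 DMSO replicate 2 (MRPL9 −0.27, −0.29 and −0.32, adjusted p = 0.097, 0.084 and 0.057; MRPS18A −0.24, −0.25 and −0.26, adjusted p = 0.082, 0.074 and 0.067), and MRPL9 also not without WERI DMSO replicate 3 (−0.27) or Y79 DMSO replicate 3 (−0.28).

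**Figure D3:**
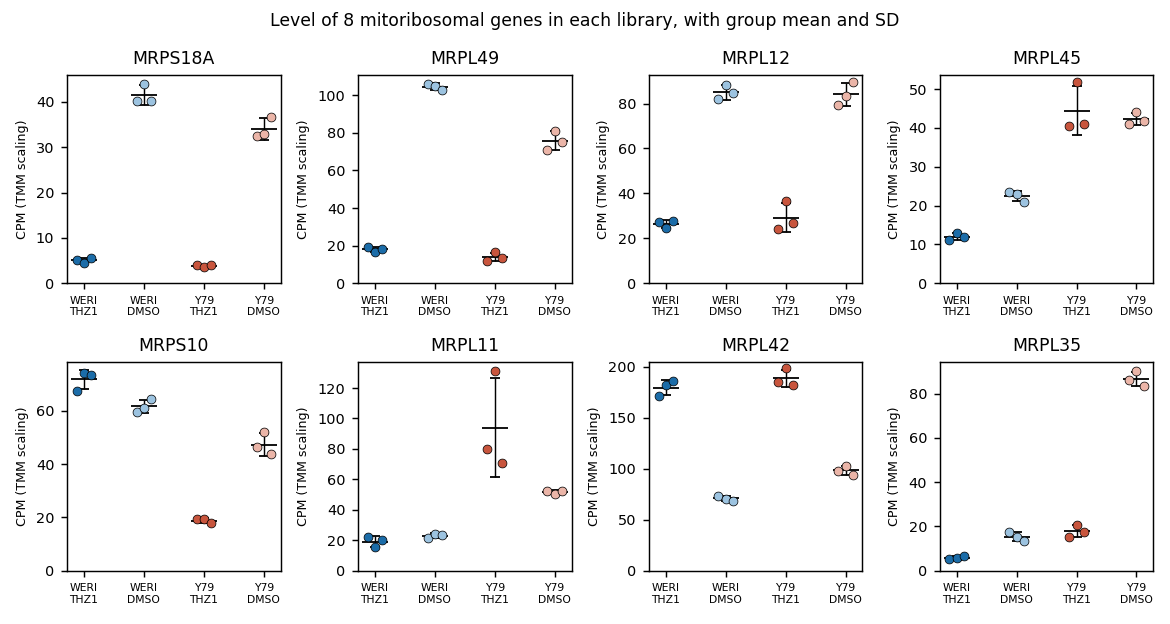
CPM (TMM scaling) of 8 genes in each of the 12 libraries, with the group mean and SD (n = 3). MRPS18A, MRPL49 and MRPL12 are low in both THZ1 groups, MRPL42 is high in both, MRPL45 and MRPS10 differ between lines in their change, MRPL11 has 1 high library in Y79 THZ1, and MRPL35 is highest in Y79 DMSO.

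Summed over the 78 genes, the share of all counts was 0.163%, 0.167% and 0.169% in WERI THZ1, against 0.314%, 0.331% and 0.327% in WERI DMSO. In Y79 it was 0.174%, 0.198% and 0.168% with THZ1, against 0.383%, 0.403% and 0.400% with DMSO. The share was 1.95-fold lower in WERI and 2.20-fold lower in Y79 with THZ1, and the groups did not overlap. A two-sided exact permutation test of 3 libraries against 3 gave p = 0.1 for each library sum here, the smallest it can give. The balance of the subunits differed little: small-subunit genes had 54.3 ± 0.3 counts per 100 large-subunit counts in WERI THZ1 and 53.1 ± 0.8 in WERI DMSO, and 59.9 ± 3.5 in Y79 THZ1 and 57.5 ± 0.3 in Y79 DMSO (SD, n = 3).

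The mRNAs that this ribosome translates went the opposite way. All 13 MT- mRNAs rose in both lines, with median log2 fold changes of 1.86 in WERI and 1.64 in Y79, and their share of counts was 10.6% ± 0.7 in WERI THZ1 and 3.87% ± 0.11 in WERI DMSO, and 9.28% ± 0.73 in Y79 THZ1 and 4.20% ± 0.26 in Y79 DMSO (SD, n = 3). For every 100 MT- counts there were 1.5, 1.71 and 1.51 counts of mitochondrial ribosomal protein genes in WERI THZ1, against 7.99, 8.41 and 8.73 in WERI DMSO. In Y79 there were 1.8, 2.35 and 1.72 with THZ1, against 9.10, 10.2 and 8.96 with DMSO. The ratio was thus 5.32-fold lower in WERI and 4.86-fold lower in Y79. In DMSO the lines stood at 9.43 ± 0.69 for Y79 and 8.37 ± 0.37 for WERI.

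**Figure D4:**
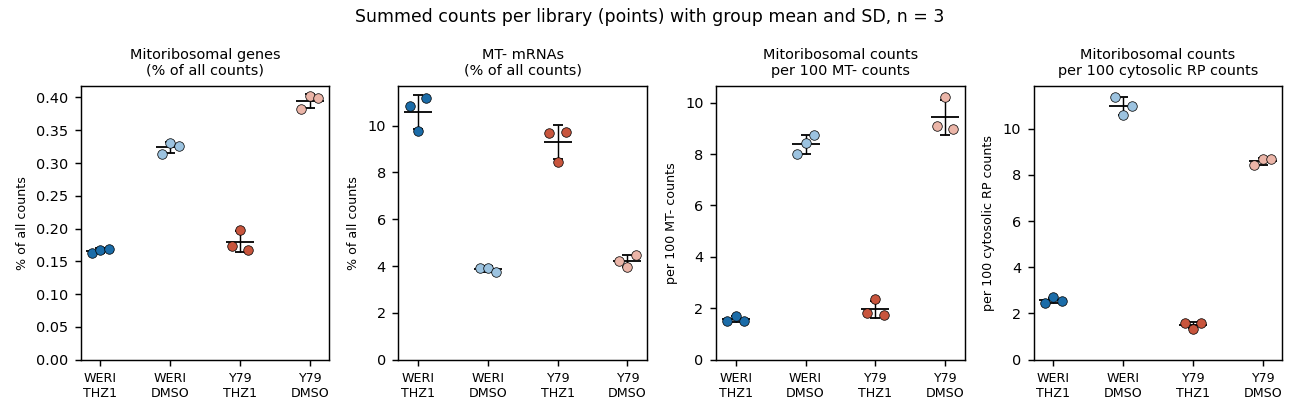
Summed counts in each library (points), with group mean and SD (n = 3): the share of the 78 genes and of the MT- mRNAs in all counts, and counts of the 78 genes per 100 MT- counts and per 100 cytosolic ribosomal protein (RP) counts. The ratio to MT- counts lies between 1.5 and 2.35 in the THZ1 libraries and between 7.99 and 10.2 in the DMSO libraries.

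When all libraries were scaled by their MT- counts, 78 of the 78 genes were lower in WERI THZ1 and 77 in Y79 THZ1, MRPL23 in Y79 being the exception at −0.22 (adjusted p = 0.27). That scaling made most of the transcriptome lower too, with 89.7% and 82% of all Ensembl genes called lower and their median moved to −2.01 and −1.8. Scaling by library size alone moved the median of all Ensembl genes to −0.56 in WERI and −0.65 in Y79, with 53.6% and 56.1% called lower, and called 68 of the 78 lower and 3 higher in each line, with 14.9% and 14.6% of all Ensembl genes called higher. Each scaling moves all genes of a library together. The distance of the 78 genes' median from that of all Ensembl genes could therefore hardly change with it. That distance was −0.53 in WERI and −1.05 to −1.06 in Y79 under all 3, which is no test of the scaling.

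Nuclear genes for the respiratory chain mostly rose under TMM scaling. The 76 nuclear genes of the respiratory chain, whose products assemble with the MT- encoded proteins, rose in 59 cases and fell in 8 in WERI, and rose in 57 and fell in 11 in Y79, with median changes of 0.77 and 0.94; in Y79 without THZ1 replicate 2 the numbers were 53 and 15 and the median 0.66. In that list COX6C, a subunit of cytochrome c oxidase, rose most in both lines (1.89 and 1.95), and NDUFA8, a subunit of complex I, fell most (by 1.72 and 2.35). Relative to MT- counts their median was −1.13 in WERI and −0.77 in Y79. For every 100 counts of that list there were 20.5 ± 0.8 counts of mitochondrial ribosomal protein genes in WERI THZ1 and 54.4 ± 0.8 in WERI DMSO, and 6.40 ± 0.27 in Y79 THZ1 and 17.5 ± 0.5 in Y79 DMSO (SD, n = 3). ATP5F1A held 65.7% to 68.6% of the list's counts in Y79 and 10.8% to 12.6% in WERI. Without it, a choice made after the data were seen, the numbers were 22.3 to 24.1 in WERI THZ1 and 61.0 to 63.3 in WERI DMSO, and 17.8 to 20.4 in Y79 THZ1 and 53.9 to 56.4 in Y79 DMSO.

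Cytosolic ribosomal protein genes, which encode the other ribosome of the cell, rose in 76 of 77 cases in WERI and fell in 1, and all 77 rose in Y79, with medians of 1.56 and 1.92 (1.63 without Y79 THZ1 replicate 2). The counts of mitochondrial ribosomal protein genes per 100 cytosolic ribosomal protein counts were 2.57 ± 0.12 in WERI THZ1 and 11 ± 0.4 in WERI DMSO, and 1.51 ± 0.14 in Y79 THZ1 and 8.59 ± 0.15 in Y79 DMSO (SD, n = 3). Those ratios were 4.27-fold and 5.71-fold lower with THZ1. Relative to MT- counts the cytosolic group's medians were −0.35 in WERI and 0.21 in Y79, so its direction changed with that scaling in WERI and not in Y79.

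**Figure D5:**
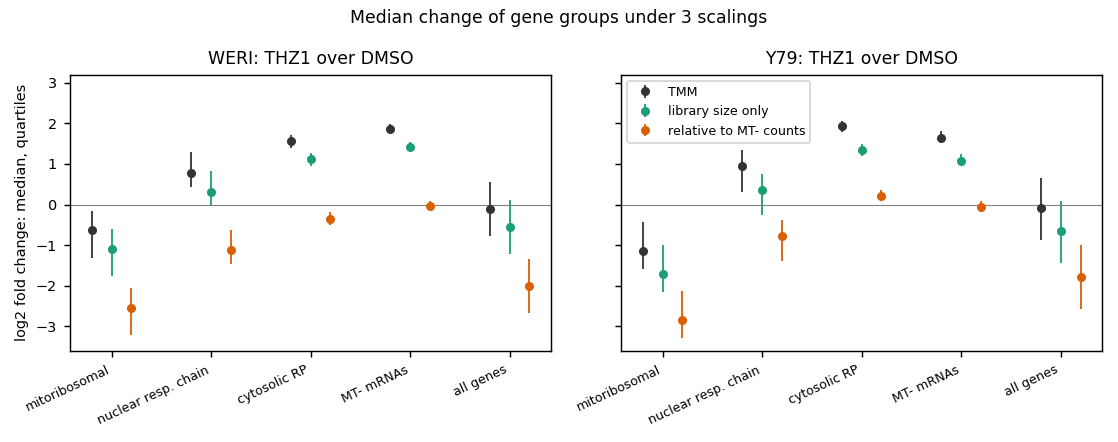
Median log2 fold change with quartiles, THZ1 over DMSO, for the 78 genes, 76 nuclear respiratory chain genes, 77 cytosolic ribosomal protein (RP) genes, 13 MT- mRNAs and all Ensembl genes, under TMM scaling, library size alone and MT- counts. The 78 genes have the lowest median of these groups under each scaling in both lines, and the respiratory chain median changes sign relative to MT- counts.

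The levels of the 78 genes also spread apart with THZ1. The SD across genes of the log2 mean CPM was 1.24 in WERI THZ1 and 0.96 in WERI DMSO, and 1.37 in Y79 THZ1 and 0.88 in Y79 DMSO. No value for all Ensembl genes is given beside these, so the wider spread is not shown to be particular to the 78. Mean CPM ran over 2.29 to 180 in WERI THZ1 and 6.47 to 105 in WERI DMSO, and over 3.22 to 189 in Y79 THZ1 and 10.9 to 126 in Y79 DMSO. Per kilobase of exon and averaged over the DMSO groups of both lines, MRPL12 had the highest level, at 81.8 CPM per kb in Y79 and 82.7 in WERI, followed by MRPL14, a protein at the subunit interface (60.2 and 62.3), and MRPS34 (67.7 and 42.1). In Y79 DMSO MRPS34 stood above MRPL14, and in WERI DMSO MRPL9 (55.7) stood above MRPS34. The lowest averages were those of MRPL46 (2.41 in Y79 and 2.21 in WERI), MRPL48 (3.28 and 3.11) and MRPS18C (3.73 and 2.72), close to that of MRPS33 (3.90 and 2.57), which in WERI DMSO lay below both MRPS18C and MRPL48. With THZ1 MRPL12 stood at 28.3 CPM per kb in Y79 and 25.7 in WERI, while MRPS34 stood at 59.9 and 30.1. Exon lengths merge all annotated transcripts, so a gene with long alternative exons has a low value per kilobase.

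Genes that serve the mitochondrial ribosome were counted against the same backgrounds, 37.2% falling and 27.7% rising in WERI and 38.5% and 29.9% in Y79. Of 5 further ribosome subunits named otherwise, 2 fell and 1 rose in WERI and 1 fell and 1 rose in Y79: DAP3, a GTP-binding small-subunit protein, rose by 0.38 and 0.46 under TMM scaling but had values of −0.07 and −0.12 under library size alone, and PTCD3 fell by 0.79 and 1.33. Of 15 translation factors 7 fell and 4 rose in WERI, and 9 fell and 4 rose in Y79. TUFM, the elongation factor that brings tRNA, rose by 1.17 ± 0.10 and 1.36 ± 0.10 (−0.73 and −0.35 relative to MT- counts), and TACO1, an activator of COX1 translation, fell by 3.00 ± 0.23 and 3.49 ± 0.24. Of 17 mitochondrial tRNA synthetases 9 fell and 5 rose in WERI, and 12 fell and 3 rose in Y79, with PARS2 lowest (−2.76 and −3.38) and RARS2 highest (1.02 and 0.88; relative to MT- counts −0.88 and −0.84).

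Of 27 assembly and rRNA modification genes 15 fell and 4 rose in WERI, and 17 fell and 6 rose in Y79. ERAL1, a chaperone of the small-subunit rRNA, fell by 2.15 and 2.27, and MTG2, a GTPase of large-subunit assembly, fell by 0.99 and 2.36. METTL17, needed for small-subunit assembly, rose by 0.82 and 1.28, and NGRN, which acts on the large rRNA, by 1.12 and 0.96, with METTL17 in Y79 (−0.43) and NGRN in WERI (−0.78) lower relative to MT- counts. Of 20 genes of mitochondrial DNA and RNA maintenance 11 fell and 4 rose in WERI, and 14 fell and 4 rose in Y79. TWNK, the mitochondrial helicase, fell by 1.72 and 2.02, and HSD17B10, part of mitochondrial RNase P, rose by 0.86 and 1.01 (−1.04 and −0.70 relative to MT- counts). POLRMT had changes of −0.38 (adjusted p = 0.0052) and −0.05 (0.71), TFAM, which packages and activates the mitochondrial genome, −0.11 (0.34) and −0.48 (0.00073), and LRPPRC, which stabilises MT- mRNAs, 0.50 and 0.23, with −0.34 in Y79 under library size alone and −1.39 and −1.49 relative to MT- counts.

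Of 16 regulators of nuclear mitochondrial genes 13 fell and 1 rose in WERI, and 11 fell and 1 rose in Y79. NRF1, a factor for many such promoters, fell by 1.41 and 0.95, GABPB1, a subunit of the ETS factor GABP, by 1.83 and 1.70, and PPRC1, a coactivator of both, by 1.43 and 1.85. GABPA, the DNA-binding subunit of GABP, had −0.29 (adjusted p = 0.0081) and −0.11 (0.26). GABPB2 fell by 0.54 in WERI and rose by 0.45 in Y79, with values of −0.11 under library size alone and −1.26 relative to MT- counts in Y79. MYC rose by 1.09 in WERI, with means of 2.04 CPM in THZ1 and 0.952 CPM in DMSO, and fell by 0.89 in Y79, and relative to MT- counts it was −0.82 in WERI. MYCN fell by 0.39 and 0.79. CDK7, a target of the drug, fell by 1.89 and 1.83.

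Many of the 78 genes lie head to head with another gene. Within 1000 bases of their start, 29 genes (37.2%) have the start of a coding gene on the opposite strand, compared with 16.2% of tested Ensembl genes. Some of these partners start inside the gene and overlap its first bases. The starts used here are the outermost annotated ones. For MRPL11, MRPL36 and MRPS22 they lie 27890, 1529 and 338188 bases from the start used for the promoter windows below. Counting both partners of MRPL32 and the pair of MRPL46 and MRPS11 from either side, 29 combinations had a tested partner. In WERI the mitochondrial ribosomal protein gene fell in 18 of them, with a partner that fell in 9 and rose in 5, and in Y79 it fell in 24, with a partner that fell in 14 and rose in 5. Over all 29 combinations the partner fell in 14 and rose in 7 in WERI, and fell in 16 and rose in 7 in Y79. The shares of all Ensembl genes were 37.2% falling and 27.7% rising in WERI, and 38.5% and 29.9% in Y79. A link within pairs was not tested.

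Some of these partners are themselves mitochondrial genes. MRPL46 and MRPS11, a large- and a small-subunit gene with starts 34 bases apart on chromosome 15, fell by 1.77 and 1.70 in WERI and by 2.11 and 1.24 in Y79. MRPL43 fell by 0.43 and 1.28, and its partner TWNK fell as given above. MRPL36 fell by 1.38 and 2.05, whereas NDUFS6, a complex I subunit 34 bases away, rose by 0.54 and 0.68. MRPL47 had −0.15 in WERI and fell by 1.41 in Y79, and NDUFB5, also of complex I, rose by 1.19 and 0.92. MRPL49 fell by 2.54 and 2.44, while FAU, which encodes a cytosolic ribosomal protein and overlaps its first bases, rose by 1.34 and 1.69.

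Promoter windows of 250 bases before to 50 after the start (RefSeq, GRCh38.p14) were found for 69 of the 78 genes, 85 windows in all. MRPL2, MRPL10, MRPL13, MRPL15, MRPL21, MRPL23, MRPL35, MRPS28 and MRPS36 had none in the table. The windows below are shown because MRPS18A fell most in both lines, MRPL42 and MRPL33 rose in both, and MRPS10 and MRPL45 had the most negative and the second most positive differences between the lines. Capitals mark matches, on either strand, to the ETS motif CCGGAAG, the YY1 motif AAGATGGC and the NRF1 motif, a GC-rich palindrome. The windows are chr6:43687742-43688041 (minus strand) for MRPS18A, chr12:93467264-93467563 (plus) for MRPL42, chr2:27771469-27771768 (plus) for MRPL33, chr6:42217812-42218111 (minus) for MRPS10 and chr17:38296918-38297217 (plus) for MRPL45.
MRPS18A: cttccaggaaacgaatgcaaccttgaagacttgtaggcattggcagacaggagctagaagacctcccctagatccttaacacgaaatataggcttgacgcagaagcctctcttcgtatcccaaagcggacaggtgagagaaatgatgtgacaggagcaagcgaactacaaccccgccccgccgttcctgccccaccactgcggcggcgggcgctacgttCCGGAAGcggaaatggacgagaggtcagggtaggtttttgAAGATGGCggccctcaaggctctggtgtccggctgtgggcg
MRPL42: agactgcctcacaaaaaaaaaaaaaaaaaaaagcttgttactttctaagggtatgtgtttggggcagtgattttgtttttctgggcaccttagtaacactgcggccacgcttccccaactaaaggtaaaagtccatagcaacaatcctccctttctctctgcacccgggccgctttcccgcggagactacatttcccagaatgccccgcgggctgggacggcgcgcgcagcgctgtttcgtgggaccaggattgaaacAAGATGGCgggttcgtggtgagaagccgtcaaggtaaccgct
MRPL33: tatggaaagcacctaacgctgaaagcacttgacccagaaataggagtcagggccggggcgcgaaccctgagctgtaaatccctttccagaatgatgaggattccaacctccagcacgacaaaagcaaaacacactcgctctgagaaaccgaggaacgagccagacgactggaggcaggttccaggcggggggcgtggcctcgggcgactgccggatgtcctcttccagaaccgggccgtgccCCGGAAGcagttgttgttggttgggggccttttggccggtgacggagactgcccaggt
MRPS10: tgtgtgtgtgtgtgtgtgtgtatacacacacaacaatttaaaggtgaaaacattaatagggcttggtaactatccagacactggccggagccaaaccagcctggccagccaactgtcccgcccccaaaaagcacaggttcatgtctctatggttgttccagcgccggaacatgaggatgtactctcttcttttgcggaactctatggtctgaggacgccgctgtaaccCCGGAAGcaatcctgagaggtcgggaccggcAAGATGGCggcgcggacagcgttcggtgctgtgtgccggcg
MRPL45: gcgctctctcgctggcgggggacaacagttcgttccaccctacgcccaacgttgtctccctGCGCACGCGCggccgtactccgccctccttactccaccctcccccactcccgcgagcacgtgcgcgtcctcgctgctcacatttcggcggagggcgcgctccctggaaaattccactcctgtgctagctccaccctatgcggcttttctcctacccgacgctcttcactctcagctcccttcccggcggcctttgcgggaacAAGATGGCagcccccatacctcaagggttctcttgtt

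MRPS18A and MRPS10 have an ETS match 31 and 22 bases before the start, and both have a YY1 match 9 bases after it. The difference between the lines was −0.11 ± 0.15 for MRPS18A (not called) and −1.55 ± 0.11 for MRPS10. A link between these matches and the response was not tested. MRPL42 has a YY1 match 8 bases after its start, MRPL45 one 13 bases after it with an NRF1 match 189 bases before it, and MRPL33 an ETS match 8 bases before it.

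The YY1 motif was in 27.1% of the 85 windows, compared with 4.29% of the windows of tested genes, and the ETS motif in 38.8% compared with 15.3%. The NRF1 motif was in 11.8% compared with 8.91%, the E-box CACGTG in 10.6% compared with 9.02%, the Sp1 motif GGGCGG in 60.0% compared with 64.3%, and the TATA motif TATAAA in 3.53% compared with 6.47%. In 15 genes the YY1 motif began 0 to 30 bases after the start, in the forward orientation in all 15. A forward YY1 match there was in 17.6% of the windows, compared with 2.17% of the windows of tested genes. By response, the YY1 motif was in 29.5% of the 44 genes with a window that fell in both lines and in 32.0% of the 25 others, and the ETS motif in 38.6% and 52.0%. A match is a stretch of letters and was not tested for binding. The YY1 motif holds ATG, the letters of a start codon, and its overlap with coding sequence was not tested.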

How the data were processed

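RNA was sequenced from 12 cultures. Per the labels' protocols the library kit was NEBNext Ultra RNA, a type without strand marking. The submitters' processing notes name Cufflinks and GRCh38, and which tool counted the reads is not stated there. As deposited, the values are raw counts per gene, in whole numbers. Unannotated loci held 2.72% to 5.12% of a library's counts and stayed in the fit. edgeR 4.0.16 (R 4.3.3) filtered low counts (filterByExpr), scaled libraries by TMM and fitted quasi-likelihood models with 1 mean per group over all 12 libraries, with Benjamini-Hochberg adjustment over 18844 features (14865 Ensembl genes and 3979 loci). CPM are counts per 1000000 of TMM-scaled library size. Log2 fold changes are given ± SE. The fit was also run on simulated counts in which few genes changed, equally many up and down. That differs from these data, so the run could not test the scaling. Library sums were compared by two-sided exact permutation tests. Gene positions, overlaps and pseudogenes came from GENCODE 29 (GRCh38). The alternatives were RLE factors, library size alone, scaling by MT- counts, no filter, DESeq2 1.42.0, a replicate block, Ensembl genes alone, the libraries of 1 line alone, and leaving out each library.

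Genes described with full values were the 6 largest called rises and falls with THZ1 in each line, the 4 largest in the difference between lines and in the lines in DMSO, the 3 highest and lowest levels per kilobase, and a fixed list of stalk, decoding, membrane, S18 and other genes, plus the largest called rise and fall of each further list. The members and lists were chosen with earlier results of these data known. The median over a list is a description, and no test was made on any list as a set. Cultures are the replicates, and the edgeR p-values weigh a difference of groups against a spread between cultures estimated over all 12 libraries.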

Additional observations from a re-analysis of the deposited data

Results flagged for a closer look

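The change with THZ1 differed between the lines, by the test of the difference itself, for 30 of the 78 mitochondrial ribosomal protein genes. Values are log2 differences, Y79 minus WERI, each with an adjusted p under 0.05 in edgeR's quasi-likelihood test. The change was more negative in Y79 for MRPS10 (−1.55), MRPL32 (−1.40), MRPL16 (−1.39), MRPL47 (−1.26), MRPL13 (−1.18), MRPS31 (−1.06), MRPL57 (−1.0), MRPS30 (−0.95), MRPL21 (−0.94), MRPS36 (−0.88) and MRPL35 (−0.86). It was also more negative there for MRPL43 (−0.85), MRPS18B (−0.81), MRPL3 (−0.80), MRPL19 (−0.76), MRPL30 (−0.73), MRPS23 (−0.72), MRPL36 (−0.67), MRPS35 (−0.54), MRPL20 (−0.54), MRPS14 (−0.42) and MRPL42 (−0.40). Under TMM scaling MRPL32, MRPL47 and MRPL57, among others, were not called in WERI and fell in Y79.

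The change was more positive in Y79 for MRPS11 (0.46), MRPS15 (0.65), MRPL37 (0.67), MRPS33 (0.79), MRPS6 (0.85), MRPL10 (0.91), MRPL45 (0.98) and MRPL11 (1.13). Of further genes named above, MYC (−1.99), MTG2 (−1.38), NDUFA8 (−0.63), PTCD3 (−0.54), PPRC1 (−0.42) and MYCN (−0.40) had more negative changes in Y79, and METTL17 (0.46) and GABPB2 (0.99) more positive ones. No explanation of these differences was tested.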

How the results depend on the processing

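Of 1390 repeats of the 97 single-gene results, 1308 kept direction and call, 30 lost the call, 11 gained it and 41 changed sign. Relative to MT- counts the sign changed for MRPL42 (−0.55 in WERI and −0.77 in Y79), MRPL33 (−0.77 and −0.48), MRPL23 (−0.86 and −0.22), MRPL48 (−1.23 and −0.86), MRPL52 (−1.48) and MRPS25 (−1.52) in WERI, and MRPL11 (−0.85), MRPL53 (−0.86) and MRPL45 (−1.64) in Y79. It also changed for TUFM (−0.73 and −0.35), LRPPRC (−1.39 and −1.49), DAP3 (−1.52 and −1.25), RARS2 (−0.88 and −0.84), HSD17B10 (−1.04 and −0.70), NGRN (−0.78), MYC (−0.82) and COX6C (−0.014) in WERI, and METTL17 (−0.43) and GABPB2 (−1.26) in Y79. Under library size alone it changed for MRPL52 (−0.029), MRPS25 (−0.072) and DAP3 (−0.069) in WERI, and MRPL45 (−0.50), LRPPRC (−0.34), DAP3 (−0.12) and GABPB2 (−0.11) in Y79. POLRMT in Y79, not called, was 0.057 with RLE factors or DESeq2, 0.063 with Ensembl genes alone and −0.18 to 0.021 on leaving out 1 library (0.021 without Y79 DMSO replicate 3, 0.011 without Y79 THZ1 replicate 1). MRPL45 in Y79 was −0.083 to 0.12 (−0.083 without Y79 THZ1 replicate 2).

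Under library size alone 3 genes were higher in each line, with medians of −1.09 in WERI, −1.71 in Y79, −0.40 for the difference and 0.30 between lines. Relative to MT- counts 0 were higher, with medians of −2.54, −2.85, −0.087 and 0.19, and 26 were higher and 10 lower between lines. The WERI libraries alone gave 11 higher. RLE factors, DESeq2 and Ensembl genes alone gave WERI medians of −0.56, −0.56 and −0.55. The shift of the medians follows that of all genes; the cause of the other moves was not tested.

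Leaving out 1 library gave 5 to 6 higher and 50 to 52 lower genes in WERI (median −0.71 to −0.63), 8 to 11 and 57 to 63 in Y79 (−1.21 to −1.11), 4 to 9 and 17 to 35 for the difference (−0.37 to −0.18) and 43 to 47 and 3 to 6 between lines (0.43 to 0.50). The difference had 35 lower only without Y79 THZ1 replicate 2. Library-sum log2 ratios kept their signs.

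Replicate numbers do not pair the samples (correlations of same-numbered libraries −0.09 to 0.03); with a replicate block 8 genes were higher and 52 lower in WERI, 10 and 60 in Y79, 6 and 21 for the difference and 50 and 5 between lines, where MRPL9 lost its call.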
